A study of Mus musculus with 14 samples.

Results

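Akt1, Mtor, Pik3ca, Pik3r1, Pik3r2, Tsc1, Tsc2 and Rheb, which encode 8 core proteins of the PI3K, AKT and mTOR growth pathway, were examined in the cerebral cortex of mice. They were chosen by name from a table of 34193 gene symbols, and all 8 were among the 13815 genes with enough reads to test. The study compared 7 mice heterozygous for a knockout of Dnmt3a, which encodes a DNA methyltransferase, with 7 wild-type littermates. All 14 animals were C57BL/6J, 8 weeks old and otherwise untreated as far as the labels say, and each genotype held 4 females and 3 males. Each animal gave 1 library from cortex, which the titles, protocols and series design describe as RNA sequencing although the molecule field reads genomic DNA, and how the knockout allele was made is not given in the labels. The sample titles start with 1 of 6 numbers, called title prefixes here, and every prefix holds both genotypes and 1 sex. What the prefix stands for is not explained in the labels.

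PI3K is a lipid kinase at the plasma membrane that growth factor receptors switch on, and its product recruits the kinase AKT. AKT inhibits the TSC complex, which holds the small GTPase RHEB inactive, and active RHEB switches on the kinase mTOR in the complex that drives protein and lipid synthesis and cell growth. In people, activating variants of PIK3CA, PIK3R2, AKT1, RHEB and MTOR and loss of TSC1 or TSC2 are known from overgrowth of the brain or other tissues. PIK3R1 variants are known from SHORT syndrome, which includes short stature. Loss of 1 copy of DNMT3A causes Tatton-Brown-Rahman syndrome, an overgrowth condition.

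Total counts lay between 8951835 and 14335406 per animal in heterozygotes and between 9794201 and 14206585 in wild-type mice. Dnmt3a itself averaged 99.0 ± 11.4 CPM (read counts scaled to the library total) in heterozygotes and 146 ± 14.2 CPM in wild-type mice (SD, n = 7 each), and the ranges did not overlap. This was a log2 fold change of -0.57 (SE 0.075, with an adjusted p of 0.0077, edgeR's quasi-likelihood test with Benjamini-Hochberg adjustment). These reads cover the whole gene and can include RNA of the knockout allele. Neuronal and astrocyte marker genes were all detected, with summed levels of 4888 to 7228 CPM for 10 neuronal genes and 9284 to 17952 CPM for 10 astrocyte genes. Of 7 choroid plexus genes, 3 had enough reads to test, and the list summed to 3.40 to 9.69 CPM. In bulk tissue, fewer cells of a type and less RNA per cell cannot be told apart.

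All 8 genes were well measured, with 597 to 4082 reads per gene and animal. Levels between genes were compared as CPM per kilobase of the principal transcript (RPKM). On that scale Akt1, the kinase at the centre of the pathway, was highest at 47.8 ± 2.78 RPKM (SD, n = 14 here and in the next sentences). The PI3K regulatory subunit genes Pik3r2 and Pik3r1 followed at 41.5 ± 3.20 and 37.8 ± 3.05 RPKM, and Rheb had 37.2 ± 4.05 RPKM. Mtor had 19.7 ± 2.44 RPKM, Tsc2 18.2 ± 1.38 RPKM, Tsc1 14.8 ± 1.16 RPKM, and Pik3ca, the catalytic subunit, 13.4 ± 1.00 RPKM. All lay above the median of 8.08 RPKM over the 12036 tested genes with a length. Neighbours in this order differed by more than the SD of their log2 ratio across animals, except Pik3r2 and Pik3r1 (log2 ratio 0.13 ± 0.19) and Pik3r1 and Rheb (0.027 ± 0.17). Akt1 exceeded Pik3r2, Rheb exceeded Mtor, and Tsc2 exceeded Tsc1 in 14 of 14 animals. This order rests on which length is used. With all annotated exons counted as length, Rheb stood at 8.60 RPKM, the lowest level of the 8. On that length Akt1 and Pik3r2 both had 31.4 RPKM, with Akt1 marginally below, and Pik3ca, at 13.2 RPKM, stood above Tsc2 at 11.4 RPKM and Tsc1 at 9.58 RPKM.

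No member passed the test of genotype. Heterozygous and wild-type ranges overlapped for 8 of 8 genes, and the fitted differences ran from -0.078 for Akt1 to 0.093 for Pik3ca on the log2 scale. With sex as a term, edgeR's quasi-likelihood test called 0 of 8 members at an adjusted p under 0.05, against 0.0145% of all tested genes (2 of 13815). Before adjustment, 0 of 8 members and 552 of all genes lay under 0.05, while DESeq2's adjusted p called 0 of 8 members and 11 of all genes. The lowest bound of the members' 95% intervals was a decrease of 12.8% (Pik3r2), and the highest was an increase of 19.4% (Rheb). Each member has its own interval, and differences inside that interval were not excluded for it. Non-overlapping ranges occurred in 0.123% of all genes.

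**Figure D1:**
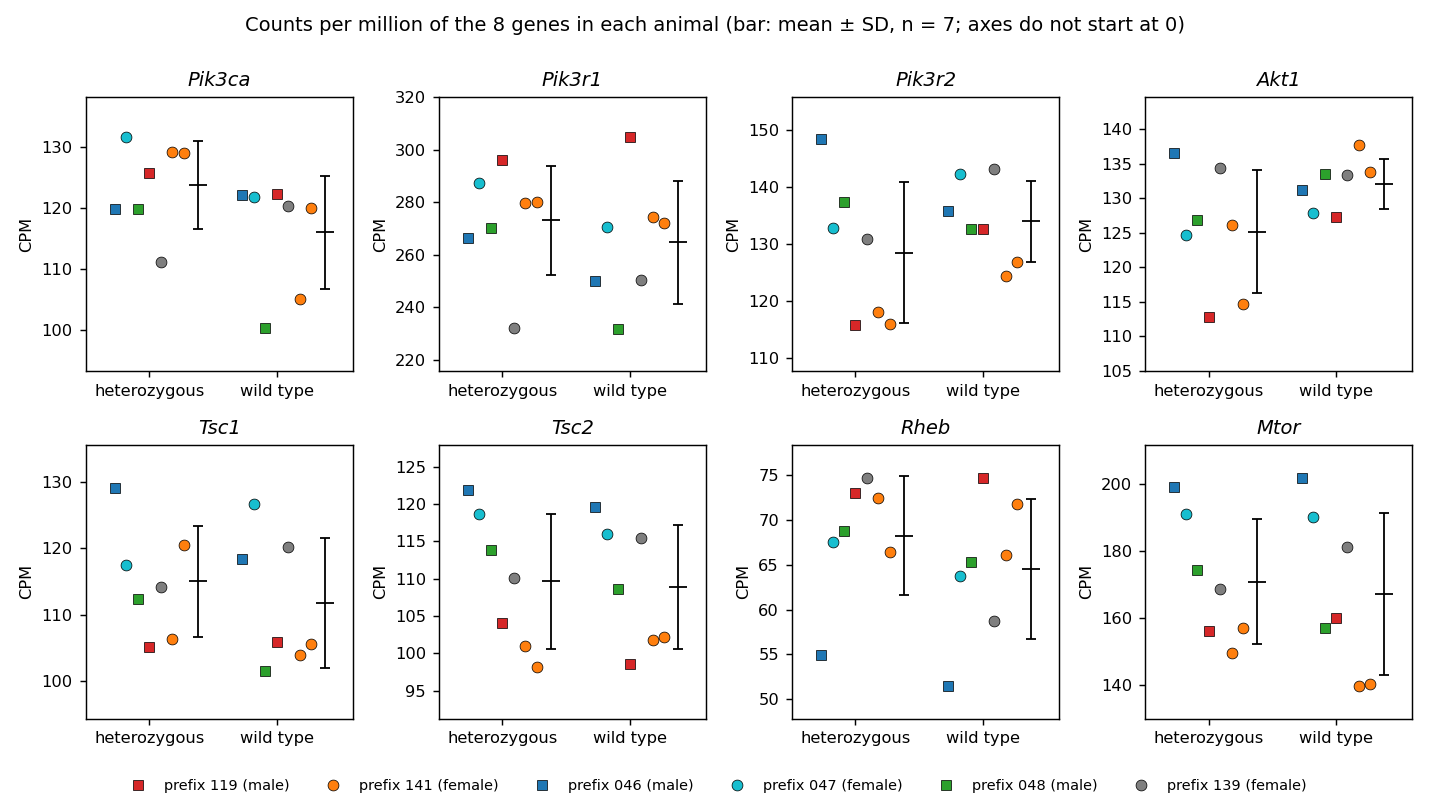
Level of each of the 8 genes in each animal, in CPM, with heterozygotes left of wild-type mice in every panel. Symbols give title prefix and sex, bars give the mean ± SD (n = 7), and the axes do not start at 0; the ranges of the genotypes overlap in every panel.

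Among the PI3K subunits, Pik3ca encodes the catalytic alpha subunit, which phosphorylates the lipid. Pik3ca had a lowest, median and highest level of 111, 126 and 132 CPM in heterozygotes, against 100.2, 120.3 and 122 CPM in wild-type mice. The lowest levels of both groups came from single animals, of prefix 139 in heterozygotes and of prefix 048 in wild-type mice. Its log2 fold change was 0.093 (95% interval -0.039 to 0.22, adjusted p = 0.978, edgeR's quasi-likelihood test), and heterozygotes were higher in 4 of 6 prefixes. Pik3r1 encodes the main regulatory subunit, which holds the catalytic subunit in check and brings it to receptors, and it was the most counted of the 8 genes. Pik3r1 had a lowest, median and highest level of 232, 279.7 and 296 CPM in heterozygotes, against 232, 271 and 305 CPM in wild-type mice. Its ranges nearly coincided, and the log2 fold change was 0.044 (SE 0.069). Pik3r2, the gene of a second regulatory subunit, had 116, 131 and 148 CPM in heterozygotes, against 124, 133 and 143 CPM in wild-type mice. The heterozygous range enclosed the wild-type one, with a log2 fold change of -0.062 (SE 0.065).

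Akt1 encodes a kinase that PI3K lipids recruit to the membrane. Akt1 had a lowest, median and highest level of 113, 126 and 137 CPM in heterozygotes, against 127, 133 and 138 CPM in wild-type mice. Wild-type animals lay in a narrow band, with an SD of 3.67 CPM against 8.93 CPM in heterozygotes, and 5 of 7 heterozygotes lay below the lowest wild-type animal. The log2 fold change was -0.078 (95% interval -0.20 to 0.040, adjusted p = 0.978, edgeR's quasi-likelihood test), and heterozygotes were lower in 4 of 6 prefixes.

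Tsc1 and Tsc2 encode the partners of the complex that turns RHEB off, with Tsc2 carrying the GTPase-activating domain. Tsc1 had a lowest, median and highest level of 105, 114 and 129 CPM in heterozygotes, against 101.5, 106 and 127 CPM in wild-type mice. Tsc2 had 98.1, 110.0 and 122 CPM in heterozygotes, against 98.5, 109 and 119.6 CPM in wild-type mice. Both genes spanned almost the same range in the 2 genotypes, and the log2 fold changes were 0.041 (SE 0.067) for Tsc1 and 0.0086 (SE 0.066) for Tsc2. The annotated exons of Tsc2 share 693 bases with Pkd1 on the opposite strand, and those of Pik3r2 share 45 bases with 6330537M06Rik. No source used here says whether reads were counted by strand, which leaves the reads in the shared bases uncertain.

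Rheb encodes the GTPase that activates mTOR. Rheb had a lowest, median and highest level of 54.9, 68.8 and 74.7 CPM in heterozygotes, against 51.4, 65.3 and 74.7 CPM in wild-type mice. Both of the lowest values belong to prefix 046. The log2 fold change was 0.082 (95% interval -0.092 to 0.26, adjusted p = 0.978, edgeR's quasi-likelihood test). Rheb was higher in heterozygotes in 5 of 6 prefixes, by log2 differences of -0.032 to 0.35 across prefixes, the largest in prefix 139. Mtor, the kinase at the end of the chain, had 149, 169 and 199 CPM in heterozygotes, against 139.7, 160.1 and 202 CPM in wild-type mice. Mtor was higher in heterozygotes in 3 prefixes and lower in 3, with a log2 fold change of 0.030 (SE 0.090, the widest of the 8).

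**Figure D2:**
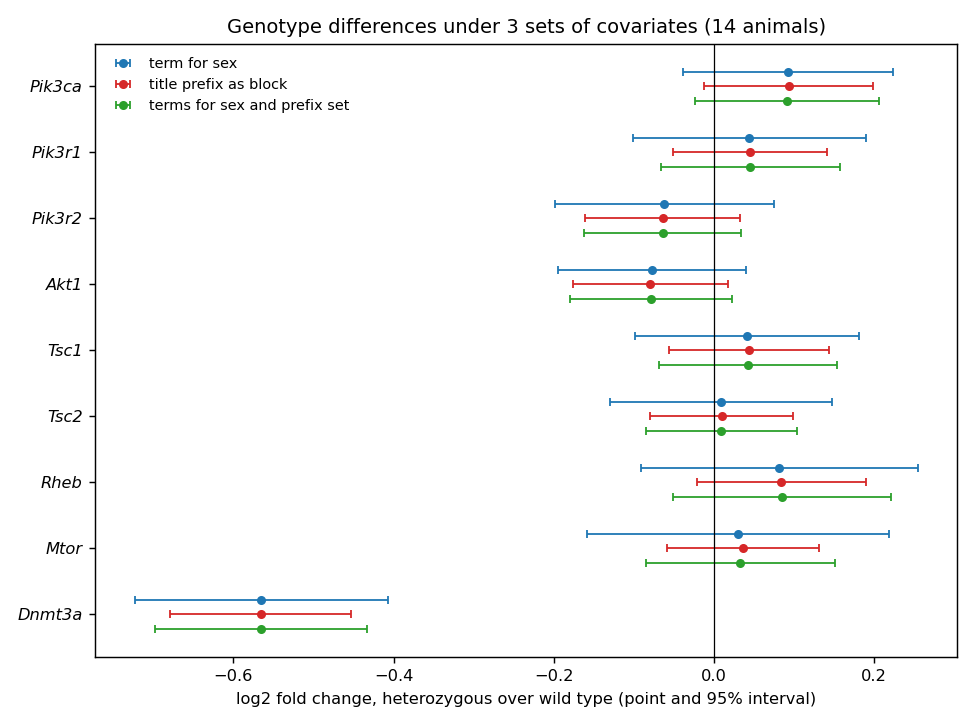
Log2 fold change of each gene, heterozygous over wild type, with its 95% interval (edgeR, all animals). Colours give fits with sex as a term, with the title prefix as a block, and with sex and a term for prefixes 119 and 141. Intervals of the 8 genes include 0 in each fit drawn, and those of Dnmt3a lie below 0.

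With the title prefix as a block, 0.405% of all genes passed (56 of 13815) and 0 of 8 members did, with adjusted p-values of 0.453 to 0.943 (edgeR's quasi-likelihood test) and 0 of 8 at an unadjusted p under 0.05. With sex and a term that sets prefixes 119 and 141 apart from the rest, 0.109% of all genes and 0 of 8 members passed. In the authors' deposited table, 27 of 14160 genes had an adjusted p under 0.05 and none was a member, with adjusted p-values of 0.708 to 0.961. The difference of the genotype effect between females and males was tested as an interaction, which edgeR called for 0 of 8 members and 0% of all genes (144 at an unadjusted p under 0.05). Females over males, with genotype as a term, gave log2 fold changes of -0.086 for Mtor to 0.064 for Rheb. Here 0 of 8 members passed in edgeR at an adjusted p under 0.05, against 0.00724% of all genes. At an unadjusted p under 0.05, there were 0 of 8 members and 964 of all 13815 genes. The ranges of females and males overlapped for 8 of 8 members, against no overlap in 0.217% of all genes. Both shares leave out genes read in the 6 males alone, since the filter on low counts went by genotype groups of 7.

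The 171 tested genes around the members were likewise not separated by genotype. They came from lists of receptors, PI3K subunits, phosphatases, kinases, complexes and downstream targets, with 176 genes in all besides the members. EdgeR's quasi-likelihood test called 0 of 171 with sex as a term and 0 with the prefix block, and 3 and 15 genes in these fits lay under 0.05 before adjustment. Over all 13815 tested genes, 552 and 1782 did. By DESeq2, 0 of the 171 passed. The median log2 fold change was 0.0031, against 0.0024 over all tested genes. Aldh1l2 and Stard4, in target lists downstream of mTOR, were among those under 0.05 before adjustment with sex as a term. Aldh1l2, a mitochondrial folate enzyme and ATF4 target, had 3.22 ± 0.987 CPM in heterozygotes and 4.46 ± 0.814 CPM in wild-type mice (SD, n = 7 each), a log2 fold change of -0.47 (SE 0.15). Stard4, a sterol carrier, had 31.3 ± 1.53 CPM in heterozygotes and 27.5 ± 2.31 CPM in wild-type mice, a log2 fold change of 0.19 (SE 0.067). Both had an adjusted p of 0.978 (edgeR's quasi-likelihood test).

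Upstream and at the membrane, the smallest unadjusted p in each direction belonged to Insr, the insulin receptor (log2 fold change 0.071, SE 0.058), and Fgfr1, a fibroblast growth factor receptor (-0.11, SE 0.058). Among other PI3K subunits these were Pik3r3 (0.093, SE 0.057) and Pik3cg (-0.13, SE 0.13), and among phosphatases Phlpp2, which dephosphorylates AKT (0.054, SE 0.077), and Inpp5d, which dephosphorylates the PI3K lipid (-0.15, SE 0.082). Sgk1, a kinase activated in parallel with AKT, had 97.2 ± 24.1 CPM in heterozygotes and 79.1 ± 20.1 CPM in wild-type mice (log2 fold change 0.31, SE 0.15), and Akt2 had -0.056 (SE 0.10). Foxo3 and Foxo4, transcription factors that AKT keeps out of the nucleus, had 0.091 (SE 0.059) and -0.27 (SE 0.14). Their targets Gadd45a, a growth arrest gene, and Bcl2l11, a pro-apoptotic gene, had 0.26 (SE 0.13) and -0.15 (SE 0.089). None of these values passed the test.

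Around mTOR, Tbc1d7, a further subunit of the TSC complex, and Rhebl1, a relative of Rheb, had log2 fold changes of 0.17 (SE 0.13) and -0.18 (SE 0.17). Rictor and Prr5, both parts of the second mTOR complex, had 0.065 (SE 0.063) and -0.10 (SE 0.16). In amino acid sensing, Kptn of the KICSTOR complex had 0.17 (SE 0.089) and Sec13 of the GATOR complexes had -0.091 (SE 0.062). In energy sensing, the AMPK subunit genes Prkaa2 and Prkag1 had 0.099 (SE 0.062) and -0.022 (SE 0.058). Of the effectors, Eif4a1, a translation initiation helicase, had 0.12 (SE 0.084), and Eef2, the translation elongation factor, had 903 ± 32.5 CPM in heterozygotes and 989 ± 109.9 CPM in wild-type mice (-0.13, SE 0.069). Slc7a1, an amino acid transporter and ATF4 target, had 0.14 (SE 0.11), and Scd1, a fatty acid desaturase, had -0.27 (SE 0.20). None of these passed either.

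**Figure D3:**
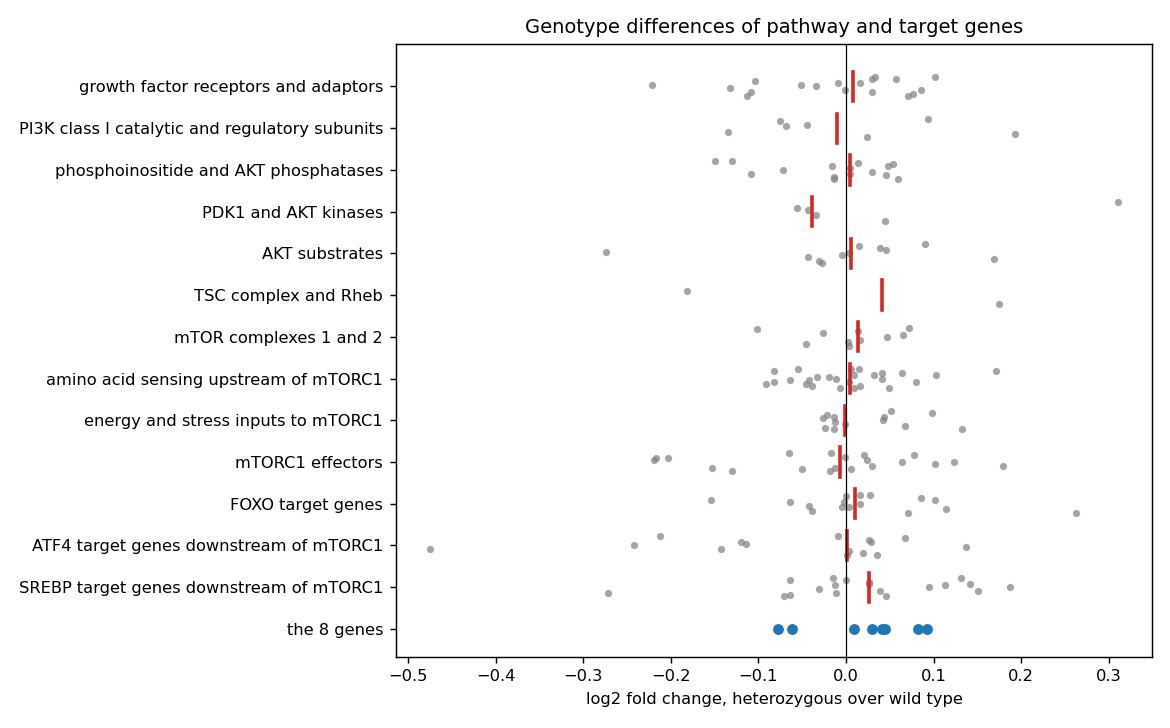
Log2 fold change, heterozygous over wild type, of each tested pathway gene by list. Dots in each list are genes other than the 8 members, and a bar is the median of the list with its members included. The bottom row has a dot for each of the 8 members. The list medians lie between -0.039 and 0.041.

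Levels also differed between title prefixes. With sex as a term, the F test over prefixes called 4 of 8 members, against 32.2% of all tested genes, so that share was not read as particular to them. They were Mtor (adjusted p = 0.00033), Rheb (0.0058), Tsc2 (0.015) and Pik3r1 (0.027), by edgeR's quasi-likelihood test with Benjamini-Hochberg adjustment. Without the wild-type animal of prefix 119, 2 of 8 were called. Rheb was lowest in prefix 046, at 54.9 CPM in the heterozygote and 51.4 CPM in the wild-type animal. All other 12 animals lay between 58.7 and 74.7 CPM. Mtor was highest there, at 199 CPM in the heterozygote and 202 CPM in the wild-type animal.

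The 6 prefixes fall into a pair, 119 and 141, with 6 animals, and the other prefixes, 046, 047, 048 and 139, with 8. This grouping was named after the main axis of variation over all genes had been seen in these animals, so the members' differences between the groups are a description, and their p-values are no independent test. With sex and genotype as terms, 4 of 8 members passed, against 38.8% of all genes. Of these 1 was higher and 3 were lower in prefixes 119 and 141, against 19.1% and 19.6% of all genes. Mtor had a lowest, median and highest level of 139.7, 153 and 160.1 CPM in prefixes 119 and 141, against 157, 186 and 202 CPM in the other prefixes. Every animal of prefixes 119 and 141 lay below the median of the others, and only the wild-type animal of prefix 048 in the others lay within their range. The log2 fold change was -0.28 (SE 0.059). Tsc2 had 98.1, 101 and 104 CPM in prefixes 119 and 141, against 109, 116 and 122 CPM in the other prefixes. It was the only member whose ranges did not overlap, as in 12.1% of all genes, and its log2 fold change was -0.19 (SE 0.047).

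Pik3r2 averaged 122 ± 6.80 CPM in prefixes 119 and 141 (SD, n = 6) and 138 ± 6.11 CPM in the other prefixes (SD, n = 8), a log2 fold change of -0.17 (SE 0.049). Pik3r1 went the other way, with 285 ± 13.0 CPM in prefixes 119 and 141 and 257 ± 19.7 CPM in the other prefixes, a log2 fold change of 0.15 (SE 0.055). Adjusted p-values of these 4 genes were 0.00073 (Mtor), 0.0022 (Tsc2), 0.0074 (Pik3r2) and 0.034 (Pik3r1) by edgeR's quasi-likelihood test. Mtor, Tsc2 and Pik3r2 passed without each animal in turn, whereas Pik3r1 passed in 8 of 14 such fits, and without the wild-type animal of prefix 119 its adjusted p was 0.144. Pik3r1 also failed without the heterozygotes of prefixes 119 and 139 and without the wild-type animals of prefixes 046, 048 and 139. Rheb (0.16, SE 0.067, adjusted p = 0.056) and Tsc1 (-0.13, SE 0.055, adjusted p = 0.060) missed the threshold, as did Akt1 (-0.070, SE 0.051) and Pik3ca (0.037, SE 0.057), by the same test.

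**Figure D4:**
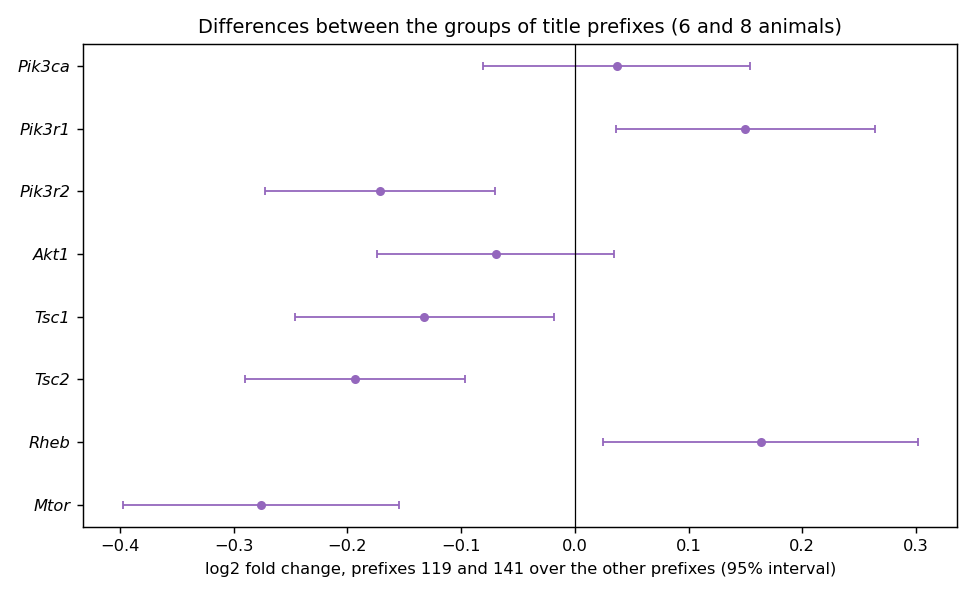
Log2 fold change of each gene, prefixes 119 and 141 over the other prefixes, with its 95% interval (edgeR, sex and genotype as terms). Mtor has the lowest value, -0.28, and Rheb the highest, 0.16.

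Other measures differed between the same animals. Astrocyte markers summed to 12517 to 17952 CPM in prefixes 119 and 141, against 9284 to 10716 CPM in the other prefixes, with 9 of 10 higher, and neuronal markers to 4888 to 6947 CPM against 6512 to 7228 CPM, with 5 of 10 lower. Of the other lists, 5 of 10 oligodendrocyte, 4 of 10 microglial and 3 of 10 endothelial and pericyte markers were higher, 3 of 8 meningeal and 1 of 9 striatal markers were lower, and 0 of 3 choroid plexus markers passed, by edgeR's quasi-likelihood test. The mitochondrial share was taken over 35 genes, without ribosomal RNA genes such as mt-Rnr1. These genes held 1.11 to 1.99% of counts in prefixes 119 and 141, against 0.571 to 0.860% in the other prefixes. The part of these in the members' differences was not tested. Of the 171 pathway genes, 26 were higher and 39 lower, together 38.0%, near the 38.8% of all genes. Medians of the lists, with the members counted in, ran from -0.13 for the TSC complex and Rheb to 0.13 for the kinases around AKT, against -0.0013 over all genes.

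The promoters of the 4 genes that differed between the prefix groups are shown with each CG in capitals, since CG is the classical substrate of DNA methyltransferases; methylation was not measured in these data. The letters are the 250 bases before the start of the first listed transcript, 5′ to 3′, from RefSeq (GRCm38.p6), for Mtor at chr4:148448332-148448581 on the plus strand, Tsc2 at chr17:24632628-24632877 on the minus strand, Pik3r2 at chr8:70776713-70776962 on the minus strand and Pik3r1 at chr13:101768218-101768467 on the minus strand.
Mtor: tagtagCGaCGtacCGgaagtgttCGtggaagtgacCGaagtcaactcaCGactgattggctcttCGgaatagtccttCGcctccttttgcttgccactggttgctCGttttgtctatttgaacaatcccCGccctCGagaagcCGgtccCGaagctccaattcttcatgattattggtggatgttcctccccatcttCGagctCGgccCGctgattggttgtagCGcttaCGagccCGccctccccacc
Tsc2: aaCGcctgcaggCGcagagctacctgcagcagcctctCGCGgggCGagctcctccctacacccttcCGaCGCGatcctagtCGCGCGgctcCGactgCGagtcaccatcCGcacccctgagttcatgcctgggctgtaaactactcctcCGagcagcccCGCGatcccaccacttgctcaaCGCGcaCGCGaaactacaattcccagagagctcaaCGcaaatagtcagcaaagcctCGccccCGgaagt
Pik3r2: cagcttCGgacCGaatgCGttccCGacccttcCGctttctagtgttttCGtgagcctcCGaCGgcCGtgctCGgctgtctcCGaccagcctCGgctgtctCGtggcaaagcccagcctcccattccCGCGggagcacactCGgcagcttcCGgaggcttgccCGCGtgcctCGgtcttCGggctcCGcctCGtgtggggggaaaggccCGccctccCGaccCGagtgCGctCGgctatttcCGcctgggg
Pik3r1: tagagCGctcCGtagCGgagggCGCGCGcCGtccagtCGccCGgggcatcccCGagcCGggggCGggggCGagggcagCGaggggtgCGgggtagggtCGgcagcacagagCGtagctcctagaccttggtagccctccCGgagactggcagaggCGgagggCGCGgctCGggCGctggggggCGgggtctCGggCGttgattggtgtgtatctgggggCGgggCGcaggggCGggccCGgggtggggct

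CG reads the same on both strands, and the windows above hold 19 in Mtor, 24 in Tsc2, 29 in Pik3r2 and 30 in Pik3r1. Of 32851 windows of the same length, 19.73% held at least as many as Mtor, 11.98% as Tsc2, 6.779% as Pik3r2 and 5.942% as Pik3r1, and the median was 6. Rheb had 37, the most of the windows of the 8 genes, a count reached by 2.204% of windows. Pik3ca had 19 and Tsc1 had 16, while Akt1 had 7 and 31 in a pair of alternative windows and Pik3r1 had 6 in its alternative window. These counts describe the windows only.

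Genotype was also compared within each group of prefixes. With animals of prefixes 119 and 141 alone (3 heterozygous and 3 wild-type mice), edgeR called 1 of 8 members, against 16.6% of 13881 genes. Akt1 had 113, 115 and 126 CPM in heterozygotes, against 127, 134 and 138 CPM in wild-type mice. The ranges did not overlap, and the fitted difference was -0.17 on the log2 scale (SE 0.058, adjusted p = 0.044, edgeR's quasi-likelihood test). The call was lost without any 1 of the 6 animals, with adjusted p-values of 0.053 to 0.185. Pik3ca had 126, 129 and 129 CPM in heterozygotes, against 105, 119.9 and 122 CPM in wild-type mice, and Pik3r2 had 116, 116 and 118 CPM in heterozygotes, against 124, 127 and 133 CPM in wild-type mice. Their ranges did not overlap either, as in 22.2% of all genes, but their adjusted p-values were 0.099 and 0.118. In the same animals those 35 mitochondrial genes held 1.37 ± 0.234% of counts in heterozygotes and 1.82 ± 0.269% in wild-type mice (SD, n = 3 each). Microglial markers summed to 374 to 412 CPM in heterozygotes and 425 to 475 CPM in wild-type mice. Endothelial and pericyte markers summed to 253 to 254 CPM in heterozygotes and 262 to 297 CPM in wild-type mice, and meningeal markers to 87.9 to 94.6 CPM in heterozygotes and 98.7 to 129 CPM in wild-type mice. The microglial, endothelial and pericyte, and meningeal sums were lower in heterozygotes with no overlap. Sums for neurons (6310 to 6947 CPM in heterozygotes and 4888 to 6468 CPM in wild-type mice), astrocytes, oligodendrocytes, choroid plexus and striatum overlapped. Mitochondrial shares also overlapped, at 1.11 to 1.56% in heterozygotes and 1.51 to 1.99% in wild-type mice. The part of these in the Akt1 difference was not tested.

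In a fit of all 14 animals with the effect of genotype estimated within each group of prefixes, 0 of 8 members passed in prefixes 119 and 141, against 4.87% of all genes. Akt1 had the smallest adjusted p there, 0.141 (edgeR's quasi-likelihood test). Before adjustment, 1 of 8 members and 2975 of all 13815 genes lay under 0.05 in that group. In the 8 animals of the other prefixes alone, 0 of 8 members and 0 of 13852 genes passed (609 genes and 0 members at an unadjusted p under 0.05, edgeR), and ranges overlapped for 8 of 8 members, against no overlap in 2.90% of all genes. Akt1 had a log2 fold change of -0.0093 (SE 0.058) there, and Rheb of 0.16 (SE 0.085, adjusted p = 0.999, edgeR's quasi-likelihood test). The difference of the genotype effect between the groups of prefixes, tested as an interaction over all 14 animals, passed for 0 of 8 members and 0% of all genes, with 2036 genes and 0 members at an unadjusted p under 0.05. Akt1 had the smallest adjusted p of the 8, 0.406, by the same test.

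Members were also compared for how their levels moved over animals, as Pearson's r of log2 CPM with sex and the prefix grouping removed. Over 14 animals that share library and tissue effects, the 28 pairs of members ran from -0.64 to 0.84 with a median of 0.25, and 16 were above 0. Against all 13814 other tested genes, the median r of a member lay between -0.044 for Mtor and 0.022 for Rheb. Mtor and Tsc1 were most alike (r 0.84, rho 0.87), followed by Mtor and Pik3ca (r 0.81, rho 0.70). Akt1 and Pik3ca had the lowest r of the 28 (r -0.64, rho -0.70). Of the 13814 other genes, 354 had an r above 0.8 with Mtor, and Tsc1 stood at percentile 98.5 and Pik3ca at percentile 97.7. Leaving out the 2 animals farthest from the median changed r to 0.71 (Mtor and Tsc1), 0.63 (Mtor and Pik3ca) and -0.66 (Akt1 and Pik3ca). Some other pairs changed more, such as Tsc1 and Tsc2 from 0.52 to -0.039 and Mtor and Tsc2 from 0.65 to 0.29. Pik3r1 and Pik3r2 rose from 0.27 to 0.38. Rheb was like no other member, with a highest r of 0.056. The single most alike gene among all tested was Pfkm for Mtor (r 0.97), Zfp523 for Akt1 (0.96), Cadps2 for Pik3ca (0.95), Mical3 for Tsc1 (0.94), Alk for Pik3r1 (0.94), Myl6b for Rheb (0.93), Scrt2 for Pik3r2 (0.93) and Cux2 for Tsc2 (0.87). Each is the highest value over all other tested genes, and its size owes part to that choice.

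**Figure D5:**
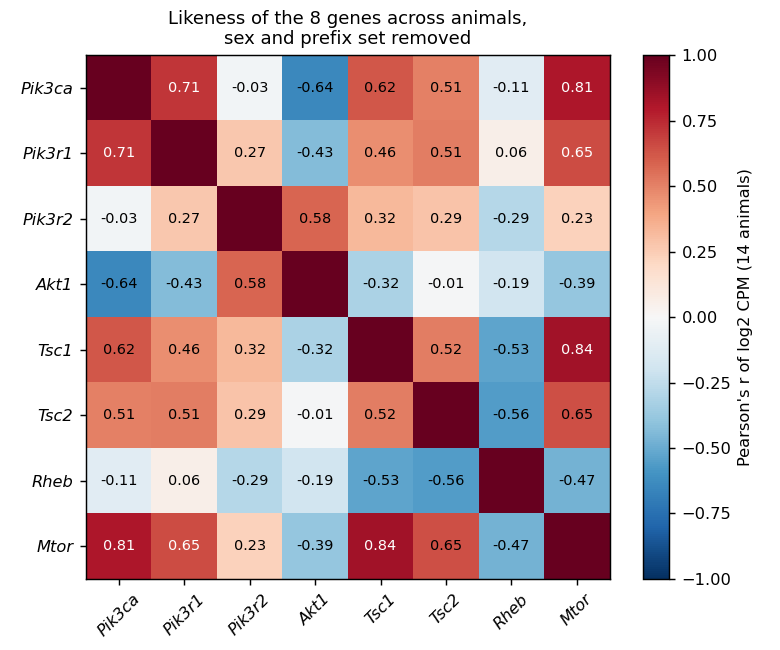
Pearson's r between members over the 14 animals, on log2 CPM with sex and the grouping of prefixes removed. Values run from -0.64 (Akt1 and Pik3ca) to 0.84 (Mtor and Tsc1).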

How the data were processed

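RNA from the cortex of 14 mice was measured by directional RNA sequencing, per the labels' protocols. The authors deposited whole-number counts of reads per gene symbol, with no normalization, for 14 libraries. The submitters' processing notes list Trim Galore, Bowtie, STAR, bedtools and the mm9 build and give no roles. The deposited table also holds the authors' comparison of genotypes, as a log2 fold change, a p-value before and after adjustment, and a score (their test statistic). Counts were tested by the quasi-likelihood test of edgeR (version 4.0.16, under R 4.3.3), using TMM factors, over 13815 genes, which held 99.9% of counts, with p-values adjusted by Benjamini-Hochberg at 0.05. The main design had sex and genotype as terms. CPM values are TMM-scaled, log2 CPM used a prior count of 2, and standard errors come from the fold change and F. Intervals are 95% confidence intervals of the fitted difference, with errors estimated from the spread between these animals.

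Animals of 1 title prefix deviated together (r 0.200 to 0.517 in 9 heterozygous and wild-type pairs), though they also share sex and prefix group, and the prefix served as a block in an alternative fit. Other alternatives were DESeq2 1.42.0, RLE factors, no filter on low counts, no covariate, the prefix groups as a term or alone, and leaving out each animal. The gene tests were tested on simulated data. Those counts held no difference by sex or prefix, so their outcome, not given here, does not speak for data with such differences. The members and gene lists, of which 5 symbols were matched by an older name, were chosen with earlier results of these data known. Members were named in every comparison. In each list the gene with the smallest genotype p in each direction was named, and per member the gene with the highest r. Transcript lengths and overlaps came from GENCODE M21 (GRCm38), whose build differs from that of the counts, and no coordinates were carried between them. Tti2 and Hmgcs1 of the lists were not analysed here, and 1 further list gene is not reported here by name.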

Additional observations from a re-analysis of the deposited data

Results flagged for a closer look

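Rheb in the heterozygote of prefix 046 stood apart from the other heterozygous animals. It had 54.9 CPM, against 66.4 CPM in the nearest of the 7 heterozygotes, and that gap was 0.583 of the whole range of the group. The wild-type animal of the same prefix had 51.4 CPM, also the lowest of its genotype. The same check was made in 16 groups, and chance marks about 1 in 20 groups.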

How the results depend on the processing

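For genotype, the 8 log2 fold changes were refitted under 22 alternatives each, 176 values in all. Of these 1 passed the threshold (Akt1 in prefixes 119 and 141 alone) and 10 changed sign. The sign changes were Rheb at -0.00053 in prefixes 119 and 141 alone, and, leaving out each animal, Mtor (-0.0079 to 0.077) and Tsc2 (-0.021 to 0.032). The count of members called was 0 under the alternatives other than prefixes 119 and 141 alone, where it was 1, and that of pathway genes called was 23 there (13.5% of 171, against 16.6% of all genes) and 0 elsewhere. The cause was not tested. With the prefix as replicate block, the count of members called stayed 0, and the pairing changed no member's call. For the F test over prefixes, 2 to 5 members passed without each animal in turn. For the prefix grouping, 3 to 6 members passed without each animal in turn, and Rheb passed with no filter on low counts (adjusted p = 0.031, edgeR's quasi-likelihood test). At each gene's mean count over the animals, counting error was 1.76 to 3.56%. The spread between animals, which includes that error, was larger at 5.81 to 12.4%.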
